A study of Mus musculus with 4 samples.

Results

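The genes described here are 10 transcripts of the oxidative stress response that the transcription factor NRF2 governs, chosen by name as Nfe2l2, Nqo1, Hmox1, Gclc, Gclm, Txnrd1, Srxn1, Gsr, Prdx1 and Sod2. These genes and the lists used below were chosen with earlier results of these data known. Their counts set beside the shares of all genes are therefore a description only. All 10 were found by their symbol among the 49997 genes counted, and all 10 passed the filter on low counts that left 19837 genes to test. They were read in poly(A) RNA of cultured mouse aorta-gonad-mesonephros (AGM) tissue, the embryonic tissue around the dorsal aorta in which blood stem cells first form. Tissue pieces of C57BL/6J embryos were kept as explants for 48 hours on filters at the gas-liquid interface, in MyeloCult medium with hydrocortisone. Of the 4 libraries, 2 were made without treatment and 2 with 5 µM CCCP present for those 48 hours. CCCP is a protonophore, a compound that carries protons across the inner mitochondrial membrane and so dissipates the membrane potential. The design text names E10.5 embryos alone, while the growth protocol names E11.5 as well. No label says how many embryos went into a library or whether the replicates were separate cultures, so the p-values measure only the spread between these libraries, which may be technical.

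The labels name embryonic stem cells of the blood and Kit-positive cells, while the extraction protocol names whole explants. Summed over 8 marker genes each, blood stem and progenitor transcripts held 129.1 to 168.8 CPM (counts scaled to library size, here with the TMM method of edgeR) and mesenchymal transcripts 3177.8 to 5521.5 CPM, so the levels below are those of a mixed tissue. In such bulk RNA, fewer cells of a type and less RNA per cell cannot be told apart. Total counts were 48216849 and 37360968 in untreated replicates 1 and 2 and 48827826 and 37579087 in CCCP replicates 1 and 2. Of 6 marker lists, the hepatic one had the median log2 fold change farthest from 0, at -4.96. Its summed level over 11 genes was 1576.5 and 914.9 CPM in untreated replicates 1 and 2 and 4.55 and 73.5 CPM in CCCP replicates 1 and 2, and Fga and Ahsg were at 0 in CCCP replicate 1. The part of hepatic cells in the results below was not tested.

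NRF2, the product of Nfe2l2, is a basic leucine zipper factor that the adaptor KEAP1 and the ubiquitin ligase CUL3 mark for destruction in unstressed cells. Oxidants and electrophiles modify KEAP1, after which NRF2 accumulates, pairs with a small MAF protein and binds antioxidant response elements near its target genes. The factor is thus controlled largely as a protein, and its targets supply glutathione, thioredoxin reductase, peroxiredoxin repair, quinone reduction and haem breakdown. Mitochondria are a source of superoxide, which manganese superoxide dismutase, the product of Sod2, converts to hydrogen peroxide in the matrix.

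The core of the antioxidant response element, TGACNNNGC, was searched on both strands of promoter windows from RefSeq (GRCm38.p6, the assembly of mm10), each running from 250 bases before a start site to 50 bases after it. The table held 7 of the 10 genes (9 windows), without Hmox1, Gclc and Gsr. The core was present in 5 of these 7, against 14.0% of the 27025 genes in the table and 12.4% of all 32851 windows. Of the 71 other genes of the pathway described further on, 62 were in the table and 14 held the core. The stretches below show each match in its setting, 5′ to 3′ on the strand of the gene, with the core, or its reverse complement, in capitals. A match of letters is a description of the sequence and not evidence of a bound site.
Nfe2l2, chr2:75704885-75704913, minus strand: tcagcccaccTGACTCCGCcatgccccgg
Gclm, chr3:122245413-122245441, plus strand: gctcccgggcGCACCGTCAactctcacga
Txnrd1, chr10:82859104-82859132, plus strand: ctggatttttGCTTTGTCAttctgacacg
Srxn1, chr2:152105542-152105570, plus strand: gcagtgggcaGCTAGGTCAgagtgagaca
Prdx1, chr4:116685456-116685484, plus strand: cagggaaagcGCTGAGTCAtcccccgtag
The match lay 236 bases before the start in Nfe2l2, 130 in Gclm, 129 in Prdx1 and 88 before the second of 3 listed starts in Txnrd1. For Gclm the start meant is that of its promoter window, base 122245557, which differs from the first base of the gene given below. In Srxn1 it lay 32 bases after the start. The core read TGACTCAGC in Prdx1, on the strand opposite to the gene. No match was found in the windows of Nqo1 and Sod2, which says only that these letters are absent there.

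Within the explants the 10 genes spanned a wide range of abundance. Levels are compared between genes as CPM per kilobase of exon, the mean of the untreated libraries. Prdx1, a cytosolic peroxidase that takes electrons from thioredoxin, stood highest at 131.0 ± 28.8 (SD, n = 2). Txnrd1, the cytosolic thioredoxin reductase, followed at 47.7 ± 3.42, and Hmox1, the haem oxygenase that cleaves haem to biliverdin, iron and carbon monoxide, at 36.7 ± 1.21. Gsr, which returns oxidised glutathione to its reduced form, stood at 15.2 ± 2.25. Nfe2l2 itself at 12.0 ± 1.91, Sod2 at 11.1 ± 0.237, Gclc at 10.8 ± 0.0145 and Gclm at 10.6 ± 1.20 lay close together. Over the untreated libraries the range of Nfe2l2 overlapped those of Sod2, Gclc and Gclm, and the range of Gclm also overlapped those of Sod2 and Gclc. Srxn1, which repairs overoxidised peroxiredoxins, stood at 5.76 ± 0.437, and Nqo1, the quinone reductase often used as a readout of NRF2, was last at 1.40 ± 0.224. On the same per-kilobase scale, the order over all 4 libraries also left Txnrd1 and Hmox1 with overlapping ranges. Gsr (13.6 to 17.9) and Gclm (9.78 to 14.0) overlapped as well.

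The comparison of CCCP with untreated explants asks whether exposure to this compound is accompanied by other levels of these transcripts. The membrane potential itself is not among the data used here. None of the 10 passed at an adjusted p-value under 0.05 in the quasi-likelihood test of edgeR, adjusted by Benjamini and Hochberg over all genes, where 0% of the 19837 genes passed. At an unadjusted p under 0.05 edgeR had 1 of the 10, Srxn1, which was higher in CCCP, against 5.45% of all genes on the higher side and 9.16% on the lower. DESeq2 called none of the 10 at an adjusted p under 0.05, against 3.32% of the genes to which it gave an adjusted p-value. Its unadjusted p was 0.0212 for Srxn1 and 0.0484 for Prdx1. The share of all genes at an unadjusted DESeq2 p under 0.05 was not computed, so these 2 values have no background here. The CCCP pair lay wholly above the untreated pair for 6 of the 10, namely Nqo1, Hmox1, Txnrd1, Srxn1, Gsr and Prdx1, where 24.0% of all genes did so. Gclc was the sole one below, against 24.8% of all genes, and Gclm, Nfe2l2 and Sod2 overlapped. In all, 8 of the 10 had a log2 fold change above 0, against 49.2% of all genes. The median log2 fold change of the 10 genes was 0.24, against -0.01 for all genes tested. Scaled by library totals alone, where the median of all genes was -0.07, 4 of the 10 lay above without overlap and 2 below, Gclc and Sod2, against 19.7% and 28.6% of all genes. Scaled with DESeq2 size factors, 7 lay above, Gclm among them, and 1 below, against 24.3% and 24.4% of all genes.

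**Figure D1:**
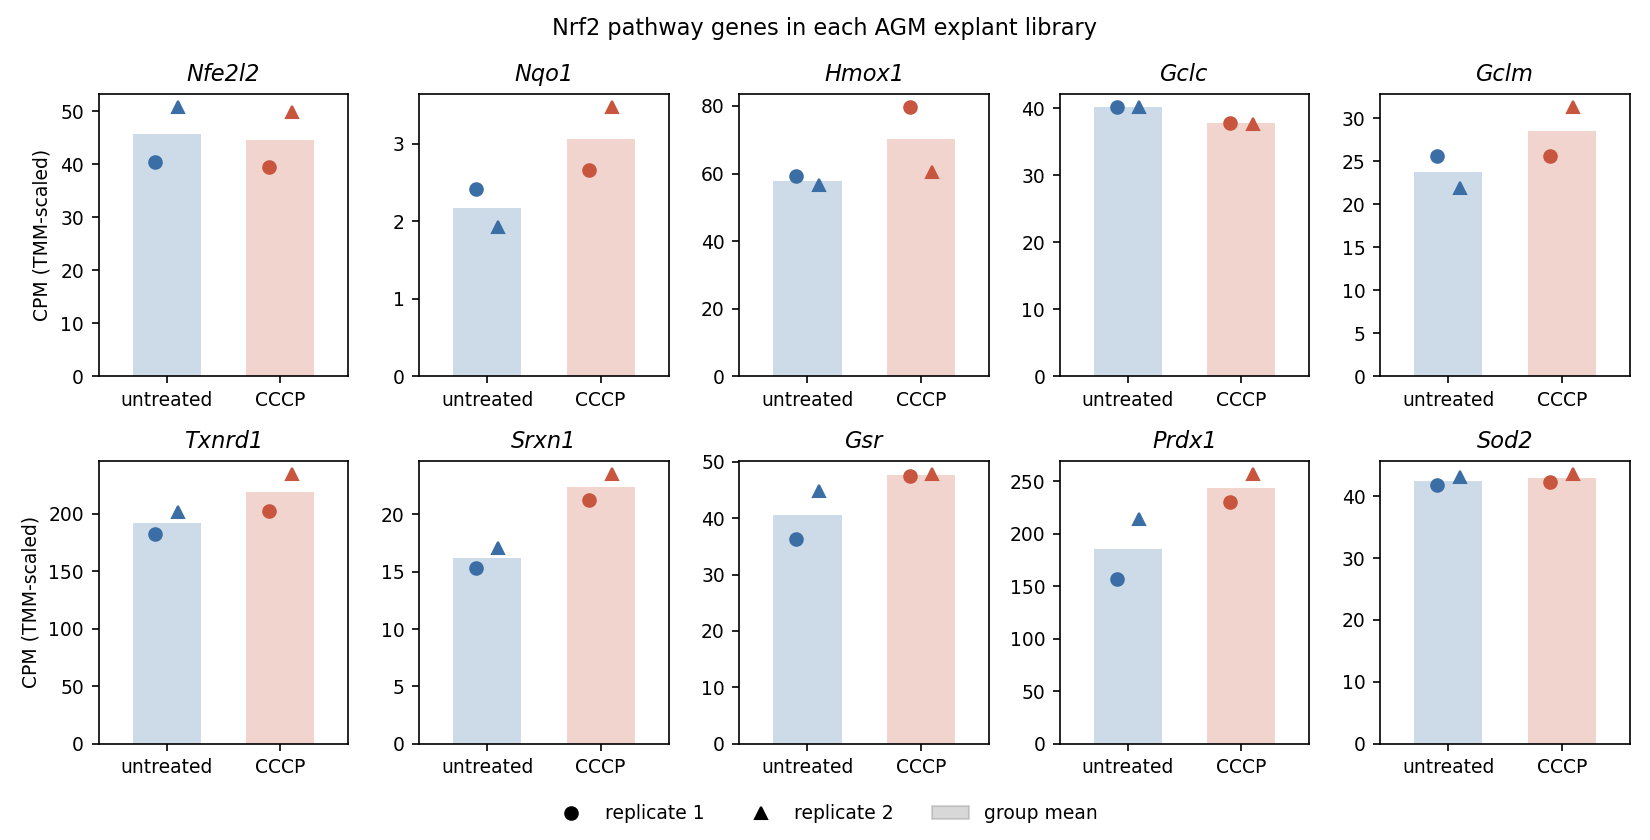
TMM-scaled CPM of each of the 10 genes (vertical axis, from 0, with its own scale per panel) in the untreated (blue) and CCCP (red) libraries, circles for replicate 1 and triangles for replicate 2, with bars at the group mean of 2 libraries. The groups are apart for Srxn1, at 15.3 and 17.1 against 21.2 and 23.5 CPM, and overlap for Nfe2l2, at 40.5 and 50.8 against 39.5 and 49.8 CPM.

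For the factor itself the group means were close. Nfe2l2 (chromosome 2, 75675513 to 75704663, mm10, as in the files) held 40.5 and 50.8 CPM untreated (replicates 1 and 2, the order used throughout) and 39.5 and 49.8 CPM under CCCP. The spread within each group was about as wide as the whole range, and replicate 2 was the higher library in both. Its log2 fold change was -0.03, with a 95% interval of -0.46 to 0.39, an edgeR p of 0.861 and an adjusted p of 0.947. Its sign depended on which libraries were used: without untreated replicate 2 the log2 fold change was 0.17 and without CCCP replicate 1 it was 0.13, against -0.18 without untreated replicate 1 and -0.20 without CCCP replicate 2.

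Of the thioredoxin branch, Srxn1 and Prdx1 had the smallest p-values of the 10 genes. Srxn1 (chromosome 2, 152105524 to 152111376) held 15.3 and 17.1 CPM untreated and 21.2 and 23.5 CPM under CCCP, from 638 to 1031 counts. Both CCCP libraries lay above both untreated ones, and the gap of 4.18 CPM between the groups was wider than the spread inside either. The log2 fold change was 0.47 (standard error 0.162), a 1.38-fold difference with a 95% interval of 1.05 to 1.82, an edgeR p of 0.0276 and an adjusted p of 0.296. DESeq2 gave an adjusted p of 0.227. The estimate stayed between 0.36 and 0.58 over the 17 alternatives tried.

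Prdx1 (chromosome 4, 116685599 to 116700000), which supplies the peroxiredoxin that sulfiredoxin repairs, held 156.7 and 214.5 CPM untreated and 230.9 and 256.7 CPM under CCCP. The groups did not overlap, but the untreated libraries were 57.8 CPM apart, more than the 16.4 CPM between the groups. The log2 fold change was 0.39 (standard error 0.176, 95% interval -0.03 to 0.82), with an edgeR p of 0.0658 and an adjusted p of 0.364. Leaving out untreated replicate 1 gave 0.19 and leaving out untreated replicate 2 gave 0.67. The exons of Prdx1 overlap those of AV051173 on the other strand, strand was not used in the counting, and a pseudogene, Prdx1-ps, is annotated, so its level is uncertain. The ratio of Srxn1 to Prdx1 in CPM per kilobase was 0.0493 and 0.0401 untreated and 0.0464 and 0.0461 under CCCP, and so overlapped.

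Txnrd1 (chromosome 10, 82833951 to 82897724) held 182.2 and 201.6 CPM untreated and 202.9 and 234.3 CPM under CCCP. The groups were apart by only 1.27 CPM, and with scaling by library totals alone they overlapped, since untreated replicate 2 then held 201.8 CPM and CCCP replicate 1 held 201.6 CPM. With TMM scaling the log2 fold change was 0.19 (95% interval -0.13 to 0.51, edgeR adjusted p 0.53).

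In the glutathione branch the estimates had both signs. Gclc and Gclm encode the catalytic and the modifier subunit of glutamate-cysteine ligase, which makes the first bond of glutathione. Gclc (chromosome 9, 77754535 to 77794489) held 40.2 and 40.1 CPM untreated and 37.8 and 37.7 CPM under CCCP. Both groups were tight and did not overlap, yet the difference was small, with a log2 fold change of -0.09 (95% interval -0.37 to 0.19, edgeR adjusted p 0.743), and negative under 15 of 17 alternatives. It was 0.0178 in the other two, which removed the GC trend by least squares. Gclm (chromosome 3, 122245487 to 122267215) held 25.6 and 21.8 CPM untreated and 25.6 and 31.3 CPM under CCCP. Untreated replicate 1 and CCCP replicate 1 were level, and the log2 fold change of 0.26 (95% interval -0.16 to 0.68) had an edgeR adjusted p of 0.507. Exons of Gclm overlap those of Gm46822 on the other strand. The ratio of Gclm to Gclc in CPM per kilobase was 1.06 and 0.904 untreated and 1.12 and 1.38 under CCCP, without overlap. This ratio was not tested, and the share of other gene ratios without overlap was not computed.

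Gsr (chromosome 8, 33653238 to 33698162), the glutathione reductase, held 36.4 and 44.9 CPM untreated and 47.4 and 47.8 CPM under CCCP. The CCCP libraries were nearly equal and above both others, while the untreated libraries were 8.51 CPM apart. The log2 fold change was 0.23 (95% interval -0.12 to 0.58, edgeR adjusted p 0.486), and became 0.095 when untreated replicate 1 was left out and 0.42 when untreated replicate 2 was. The ratio of Txnrd1 to Gsr in CPM per kilobase was 2.84 to 3.33 over the 4 libraries, and its groups overlapped.

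Hmox1 and Nqo1, the targets most often taken as readouts of NRF2, differed in how well they were measured. Hmox1 (chromosome 8, 75093618 to 75100593) held 59.2 and 56.5 CPM untreated and 79.7 and 60.5 CPM under CCCP. CCCP replicate 1 stood apart from the other 3 libraries, and CCCP replicate 2 exceeded untreated replicate 1 by only 1.25 CPM. The log2 fold change of 0.28 (95% interval -0.11 to 0.66, edgeR adjusted p 0.455) was 0.07 without CCCP replicate 1 and 0.47 without CCCP replicate 2. Scaled by library totals alone, CCCP replicate 2 held 58.4 CPM and untreated replicate 1 held 61.5 CPM, so the groups overlapped.

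Hmox1 is known to be high in macrophages, which clear haem, and erythroid cells carry much of that haem. The summed level of 10 macrophage markers was 258.4 and 180.2 CPM untreated and 260.1 and 261.5 CPM under CCCP. Of these markers, 6 had a log2 fold change above 0 and 4 below. Without overlap, 3 lay above (C1qa, C1qb and C1qc) and 0 below, against 24.0% and 24.8% of all genes. The summed level of 11 erythroid markers was 2670.7 and 3305.6 CPM untreated and 3042.1 and 5106.7 CPM under CCCP. None of the markers of either list was at 0 in all libraries. The part of these cells in the Hmox1 values was not tested.

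Nqo1 (chromosome 8, 107388225 to 107403205) had the largest log2 fold change of the 10 genes, 0.49, and also the widest 95% interval, -0.31 to 1.29. It was counted 121 and 72 times in the untreated libraries and 129 and 126 times in the CCCP libraries, or 2.42 and 1.93 CPM against 2.66 and 3.47 CPM. The groups did not overlap, but the exact Poisson 95% intervals of untreated replicate 1 (2.01 to 2.89 CPM) and CCCP replicate 1 (2.22 to 3.16 CPM) did; such intervals cover counting error only. The edgeR adjusted p was 0.512, and the log2 fold change was 0.30 without CCCP replicate 2 and 0.68 without CCCP replicate 1.

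Sod2 (chromosome 17, 13007839 to 13018119) was the steadiest of the 10 genes. It held 41.9 and 43.1 CPM untreated and 42.4 and 43.5 CPM under CCCP, and its highest library was 1.04 times its lowest. CCCP over untreated gave a log2 fold change of 0.02, with a 95% interval of -0.26 to 0.30 and an edgeR adjusted p of 0.961. With scaling by library totals alone it was -0.04.

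**Figure D2:**
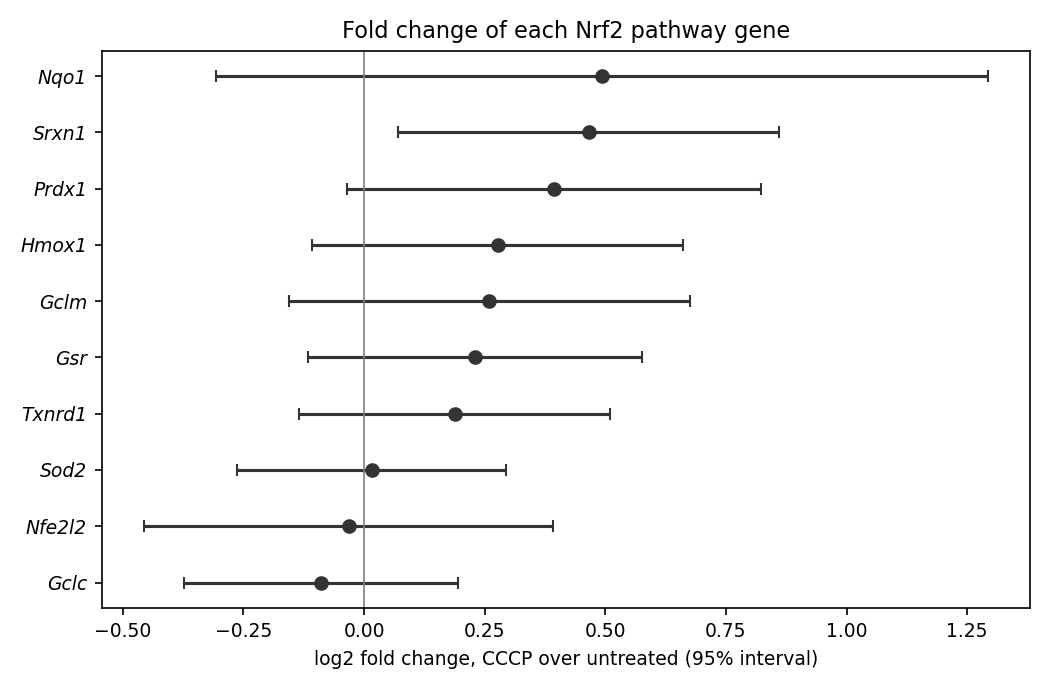
Log2 fold change of CCCP over untreated for each of the 10 genes (points) with its 95% interval from edgeR (bars), ordered by size. The interval of Srxn1, 0.07 to 0.86, is the sole one that leaves out 0, before adjustment over genes.

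Most of the estimates rested on which library of a pair was used, as the plot of each way of fitting shows. Nqo1, Srxn1, Prdx1, Hmox1, Gclm, Gsr and Txnrd1 had a log2 fold change above 0 under all 17 alternatives. The alternatives refit the same 4 libraries, so they are not separate evidence. For the 6 genes above without overlap, leaving out 1 library could hardly turn the sign. The share of all genes that kept their sign was not counted. Only the log2 fold change of Srxn1 kept within 1.5 times of its value under each alternative. Across all genes the log2 fold change went with exon length (Spearman's rho -0.35 over 19837 genes, a description, since genes share their libraries). With the length trend removed, Prdx1, of 1417 bases, stood at 0.25, Nqo1, of 1552 bases, at 0.33 and Hmox1, of 1576 bases, at 0.13, while Srxn1 stood at 0.40 and Txnrd1, of 4019 bases, at 0.20. The median of the 10 genes was then 0.16. These trends were fitted with a robust loess, and a least-squares loess of length, which moved the median of all genes to 0.11, put it at 0.28. The log2 fold change also went with the GC content of the transcript (rho 0.374 over the 90.4% of genes with a value, again a description). With that trend removed, an alternative chosen after seeing the data, Prdx1, of 42.3% GC, stood at 0.62, Gclm, of 42.1%, at 0.49 and Sod2, of 42.2%, at 0.25. Hmox1, of 53.3% GC, stood at 0.17 and Srxn1, of the same share, at 0.36.

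**Figure D3:**
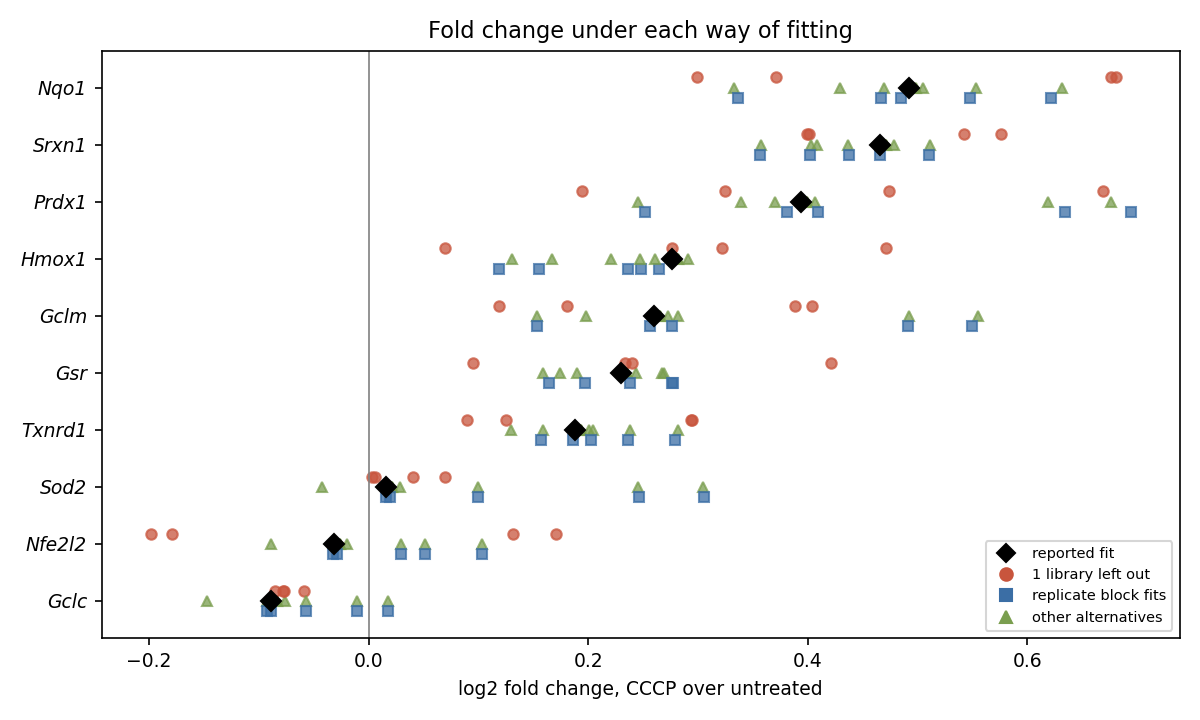
Log2 fold change of CCCP over untreated for each of the 10 genes (horizontal axis) in the reported fit (black diamonds), with 1 library left out (red circles), with the replicate number as a block (blue squares) and under the other alternatives (green triangles). The points of Nfe2l2 fall on both sides of 0, from -0.20 to 0.17, and those of Srxn1 lie between 0.36 and 0.58.

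The rest of the pathway was read from 4 lists of other genes. None of their 69 tested genes passed the adjustment in edgeR, while 18 had an unadjusted p under 0.05 on the higher side and 4 on the lower, against 5.45% and 9.16% of all genes. Among 14 regulators and partners of NRF2, 7 lay above without overlap and 3 below, where 24.0% and 24.8% of all genes did so, with a median log2 fold change of 0.12. Keap1, the repressor, held 59.3 and 60.6 CPM untreated and 76.4 and 76.5 CPM under CCCP, a log2 fold change of 0.35 (standard error 0.108, edgeR p 0.017, adjusted p 0.269). The spread within each group was far smaller than that difference. Cul3, whose product joins KEAP1 in the ubiquitin ligase, went the other way, at 174.0 and 182.0 CPM against 136.9 and 132.0 CPM, a log2 fold change of -0.40 (edgeR p 0.0103, adjusted p 0.24). With the GC trend removed, the value of Cul3 was -0.03 (0.0038 by least squares), and that of Keap1 was 0.19. Dpp3, a peptidase that binds KEAP1, had a log2 fold change of 0.39 (edgeR adjusted p 0.278), and Gsk3b, a kinase that promotes the breakdown of NRF2, had -0.34 (0.334), which became -0.20 when untreated replicate 1 was left out and -0.12 with the length trend removed (-0.06 by least squares). The ratio of Keap1 to Nfe2l2 in CPM per kilobase was 1.25 and 1.02 untreated and 1.65 and 1.31 under CCCP, without overlap. This ratio was not tested either, and the share of other gene ratios without overlap was not computed.

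Of 28 other NRF2 targets, 26 passed the filter and Gpx2 and Aox1 did not. Both CCCP libraries were above both untreated libraries for 17 of the 26 and below for 1, against 24.0% and 24.8% of all genes, and the median log2 fold change was 0.28. The 2 smallest p-values on the higher side belonged to enzymes of the pentose phosphate pathway, which makes the NADPH that the glutathione and thioredoxin reductases use. Taldo1, the transaldolase, held 85.3 and 93.6 CPM untreated and 122.2 and 130.2 CPM under CCCP, with a log2 fold change of 0.50 (standard error 0.117, edgeR adjusted p 0.206). It was the sole gene of the 4 lists to pass in DESeq2, with an adjusted p of 0.0458, and its log2 fold change was 0.33 with the length trend removed. Pgd, the 6-phosphogluconate dehydrogenase, held 100.9 and 118.5 against 146.4 and 150.9 CPM, a log2 fold change of 0.44 (edgeR adjusted p 0.251). Gstm1, a glutathione transferase abundant in liver, was the one below, at 31.9 and 23.7 CPM against 20.1 and 18.2 CPM, a log2 fold change of -0.54 (edgeR adjusted p 0.299), and the hepatic markers, whose values are given above, were lower in the same libraries. Their part in the Gstm1 values was not tested. Gstm1 belongs to a family of close paralogs, and reads shared between genes were not counted, so its level is uncertain. Its log2 fold change was -0.30 when untreated replicate 1 was left out. Osgin1, an NRF2 target of low abundance here, overlapped between the groups at 4.04 to 6.29 CPM.

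Among 20 other antioxidant enzymes and their regulators, 11 lay above without overlap and 1 below, against 24.0% and 24.8% of all genes, with a median log2 fold change of 0.32. With the length trend removed, that median was 0.21 (0.32 by least squares). Msrb1, a methionine sulfoxide reductase, held 15 and 16.3 CPM untreated and 21.4 and 21.1 CPM under CCCP, a log2 fold change of 0.44 (edgeR adjusted p 0.301). Prdx2, a peroxiredoxin abundant in red cells, had 0.41 (0.345), with 359.2 and 462.5 CPM against 506.5 and 588.0 CPM. The erythroid sum given above was also highest in CCCP replicate 2. That sum was lower in CCCP replicate 1 (3042.1 CPM) than in untreated replicate 2 (3305.6 CPM). Of it, Hbb-bh1 held 452.8 CPM in the former library and 837.4 CPM in the latter. Of the 11 erythroid markers, 9 had a log2 fold change above 0 and 2 below. Without overlap, 4 of them lay above and 1 below, against 24.0% and 24.8% of all genes. The part of erythroid cells in the Prdx2 values was not tested, and its log2 fold change ranged from 0.25 to 0.64 over the alternatives. Txnip, which binds and inhibits thioredoxin, was the one below. It held 26.4 and 45.2 CPM untreated and 21.9 and 16.5 CPM under CCCP, a log2 fold change of -0.89 (edgeR p 0.0196, adjusted p 0.272), which became -0.42 when untreated replicate 2 was left out and -1.22 when untreated replicate 1 was. Txnrd3 overlapped between the groups.

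Of 9 antioxidant enzymes of the mitochondrion, 7 lay above without overlap and 1 below, against 24.0% and 24.8% of all genes, with a median log2 fold change of 0.32, while the groups overlapped for Sod2 of the same compartment. With the length trend removed, the median of the 9 was 0.24 (0.34 by least squares). Prdx5, a peroxiredoxin found in mitochondria and elsewhere, held 37.7 and 40.8 CPM untreated and 50.7 and 53.7 CPM under CCCP, a log2 fold change of 0.41 (edgeR p 0.0132, adjusted p 0.251). Idh2, which makes NADPH in the matrix, held 198.5 and 249.3 CPM against 283.0 and 311.4 CPM, also a log2 fold change of 0.41 (edgeR adjusted p 0.316). Msrb2 was the one below, with a log2 fold change of -0.14 (0.794), which became -0.06 without CCCP replicate 2 and -0.21 without CCCP replicate 1, and Glrx2 overlapped at -0.05 (0.911). Over the alternatives Prdx5 ranged from 0.24 to 0.50 and Idh2 from 0.26 to 0.61.

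**Figure D4:**
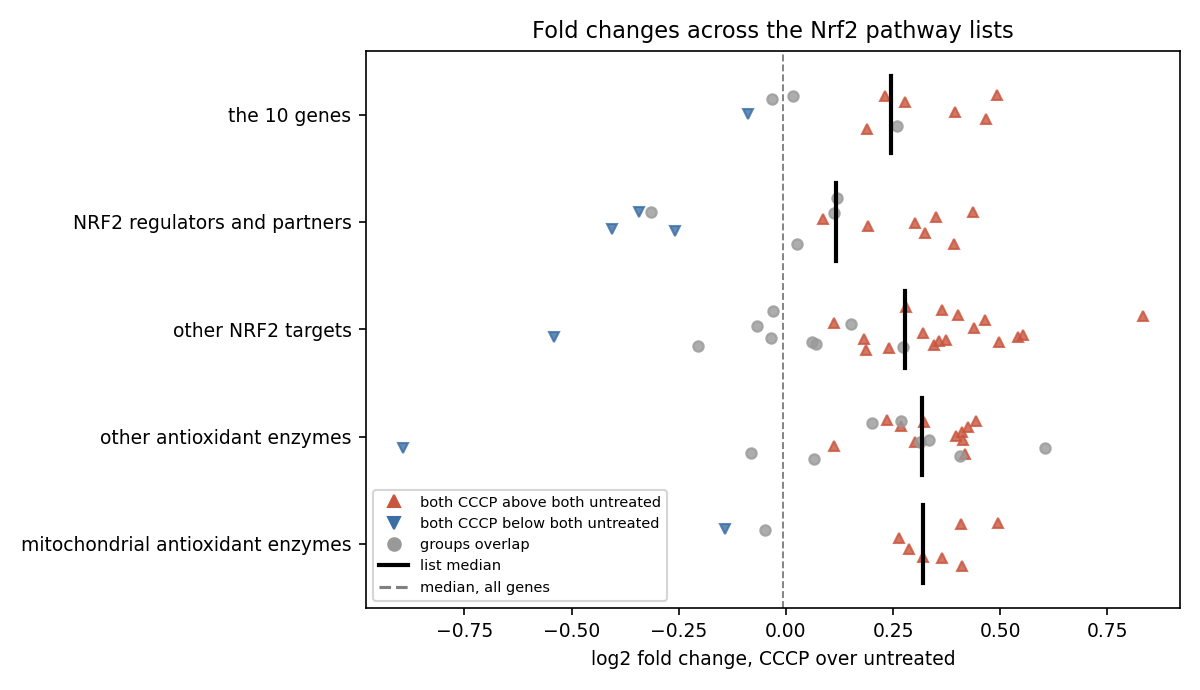
Log2 fold change of CCCP over untreated (horizontal axis) of every tested gene in the 10 genes and in 4 lists of other pathway genes, with upward triangles where both CCCP libraries lie above both untreated libraries, downward triangles where both lie below and circles where the groups overlap. Black lines mark list medians, from 0.12 for the regulators to 0.32 for the mitochondrial enzymes, and the dashed line marks the median of all genes, -0.01.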

How the data were processed

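Poly(A) RNA of 4 libraries was deposited as unscaled read counts per gene, for which the authors ran featureCounts 2.0.3 on exons of the mm10 RefSeq annotation, per the file headers. No strand, multi-mapping, overlap or read-pair counting option was set there. FastQC, HISAT2, SAMtools and Subread are named, without versions, per the submitters' processing notes. The header of untreated replicate 1 differs by a letter from its title, so the record of the file was used.

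The test was edgeR 4.0.16 in R 4.3.3 (quasi-likelihood, TMM, filterByExpr with minimum count 10 and minimum total 15, group as the sole term, two-sided, threshold 0.05), checked on simulated data. The simulated counts were drawn with the trended dispersion after a first draw with another dispersion had missed the bar of the check. That first draw had recovered fewer of the altered genes and given more false calls. The bar concerned genes altered by more than any of the 10 was estimated to differ. Standard errors were the log2 fold change over the square root of F. Exon lengths are those deposited. Counting DESeq2 1.42.0, 17 alternatives were fitted. The 10 genes and all lists were chosen with earlier results of these data known. Named besides the 10 were Keap1 and, per list, the 2 smallest p-values in each direction. A count of 3 is a CPM of 0.0614 to 0.0803.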

Additional observations from a re-analysis of the deposited data

How the results depend on the processing

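With the replicate number as a block, edgeR called 2118 genes (10.7%) at an adjusted p under 0.05, 1 of them among the 10 (Prdx1, log2 fold change 0.41, adjusted p 0.0408). Libraries with the same number departed alike from their group means (correlation 0.36) and were close in total counts, given above. No label gives the number a meaning, so whether it marks a pairing is not known. The replicate block called 3 of 14 regulators, 7 of 26 other targets, 6 of 20 other enzymes and 3 of 9 mitochondrial enzymes. Later counts for the lists keep this order and these sizes. With the exon length trend removed as well, it called 1453 of 19837 genes, none of the 10, and 2, 4, 1 and 1 of the lists. With the GC trend removed instead, chosen after seeing the data, it called 838 of 19837, with Prdx1 (0.63, adjusted p 0.0133), 1 regulator and 2 other targets. The trends were first fitted by least squares; the robust loess in use was chosen after that fit's calls and its shift of the median of all genes (0.11 for length, 0.06 for GC content) had been seen. By least squares with the block, removing the length trend called 3130 of 19837 genes (2342 higher, 788 lower). Among them were Srxn1 (0.51, adjusted p 0.0278), Prdx1 (0.38, 0.0237) and 7, 10, 7 and 5 of the lists. Removing the GC trend called 1699 of 19837 (1021 higher, 678 lower), with Gclm (0.55, 0.0314), Prdx1 (0.69, 0.00282) and 3, 8, 6 and 2 of the lists. DESeq2 called 594 genes (59 higher, 535 lower), 3.32% of those with an adjusted p-value, and 1 of the 594 was an other target. Without the filter, edgeR called 1107 of 32261 genes (217 higher, 890 lower), 3 of them other targets and 1 another enzyme. With 1 library left out the count ran from 10 to 46 genes, none of the 10, the lone library being assumed to vary like the others. Library totals alone, DESeq2 size factors in edgeR and either trend removed by either loess without the block called 0, as did the reported fit, in which 1082 genes higher and 1817 lower had an unadjusted p under 0.05.

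The median of the 10 genes lay between 0.16 and 0.29 over the 17 alternatives. With 1 library left out, the regulators ranged from 0.11 to 0.17, the other targets from 0.19 to 0.39, the other enzymes from 0.13 to 0.60 and the mitochondrial enzymes from 0.23 to 0.49. The regulators stood at 0.056 with library totals alone, 0.24 with the length trend removed (0.24 with the block; by least squares 0.34 with and without it) and 0.0211 with the GC trend removed (0.0162 with the block), and the other targets at 0.18 with the length trend removed (0.19 with the block). The sign turned for Sod2 with library totals alone (-0.042), for Nfe2l2 with the GC trend removed (0.0297, or 0.0296 with the block) and for Glrx2 with the length trend (0.026, or 0.0295 with the block) or the GC trend removed (0.13 with and without the block). With 1 library left out it also turned for Nfe2l2 (-0.20 to 0.17), Glrx2 (-0.15 to 0.11), Txnrd3 (-0.21 to 0.11) and Osgin1 (-0.45 to 0.0229). By least squares it turned for Nfe2l2 (0.0517 for length and 0.10 for GC, or 0.0516 and 0.10 with the block), Glrx2 (0.095 and 0.19, or 0.0968 and 0.20), and, for GC alone, Gclc (0.0178 with and without the block) and Cul3 (0.0038, or 0.0047). The causes were not tested. Of the 10 genes, Nqo1, at 72 to 129 counts, is the one for which depth limits precision most.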
